A study of Mus musculus with 3 samples.

Results

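The MAP kinase phosphatases examined here were 7 mouse genes, Dusp1, Dusp2, Dusp4, Dusp5, Dusp6, Dusp10 and Dusp16, out of 34813 gene names measured on every array. They were found as the non-control probes whose deposited gene name matched a family member exactly, which gave 8 probes: 1 for each gene and a second one for Dusp16. Bone marrow-derived macrophages (BMDMs) of C57BL/6J mice, grown from marrow cells with macrophage colony-stimulating factor, were exposed to stimuli for 20 h before RNA was profiled on 1-colour Agilent arrays. The 3 arrays carried 1 sample each: CpG, a DNA ligand of Toll-like receptor 9, alone; IFN-γ with an IL-10 receptor blocker, labelled IFN-g+IL-10RB and written IFN-γ + αIL-10R below; and all 3 agents together, labelled triple and written Triple below. No array of unstimulated BMDMs was analysed, and the agents IFN-γ and αIL-10R were always given together, so that their separate parts in any difference cannot be told apart. With 1 array per group there is no replicate check of any difference, no p-value is given, and a 2-fold difference is a rule of size and not a test.

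MAP kinase phosphatases are dual-specificity enzymes that switch off ERK, JNK and p38 by removing phosphate from both the threonine and the tyrosine of the activation loop. Many of their genes are themselves switched on by MAP kinase signalling, which makes them feedback inhibitors. In macrophages some of them, such as Dusp1, limit cytokine production after Toll-like receptor ligation, which does not hold for every member. By location and substrate the family divides into inducible nuclear enzymes (Dusp1, Dusp2, Dusp4 and Dusp5), a cytoplasmic ERK-selective class (Dusp6, with Dusp7 and Dusp9) and a class that prefers JNK and p38 (Dusp10 and Dusp16, with Dusp8).

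The promoters are described here before the signals, and their part in any difference between arrays was not tested. RefSeq windows (GRCm38.p6) of 250 bases before to 50 bases after the start site were at hand for 6 of the 7 members, and those windows were searched on both strands for elements that bind factors downstream of MAP kinases, NF-kB and interferons. The bases before the start site of 5 members follow, 5′ to 3′ on the gene's strand, with capitals for the cyclic AMP response element (CRE), TGACGTCA, or its core, TGACG.
Dusp1, chr17:26508473-26508722, minus strand: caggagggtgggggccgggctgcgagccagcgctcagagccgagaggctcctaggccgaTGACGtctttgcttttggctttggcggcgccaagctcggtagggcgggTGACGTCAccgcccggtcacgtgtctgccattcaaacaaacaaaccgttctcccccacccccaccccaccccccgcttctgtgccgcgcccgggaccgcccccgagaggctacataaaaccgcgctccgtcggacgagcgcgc
Dusp2, chr2:127335909-127336158, plus strand: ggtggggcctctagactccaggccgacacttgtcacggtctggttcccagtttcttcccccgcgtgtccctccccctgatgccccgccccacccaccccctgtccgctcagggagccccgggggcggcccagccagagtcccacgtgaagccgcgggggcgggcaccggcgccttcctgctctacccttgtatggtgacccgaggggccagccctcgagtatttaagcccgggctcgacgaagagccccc
Dusp6, chr10:99262981-99263230, plus strand: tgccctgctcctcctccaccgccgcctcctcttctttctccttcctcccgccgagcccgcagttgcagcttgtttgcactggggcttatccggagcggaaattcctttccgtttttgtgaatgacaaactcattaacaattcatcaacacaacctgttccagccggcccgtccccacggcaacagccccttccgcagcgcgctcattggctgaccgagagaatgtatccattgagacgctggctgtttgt
Dusp10, chr1:184034131-184034380, plus strand: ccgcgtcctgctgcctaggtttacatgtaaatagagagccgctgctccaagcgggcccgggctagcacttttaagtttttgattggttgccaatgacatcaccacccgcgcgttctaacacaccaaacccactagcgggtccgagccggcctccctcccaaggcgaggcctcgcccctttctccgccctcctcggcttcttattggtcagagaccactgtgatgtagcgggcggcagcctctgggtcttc
Dusp16, chr6:134792629-134792878, minus strand: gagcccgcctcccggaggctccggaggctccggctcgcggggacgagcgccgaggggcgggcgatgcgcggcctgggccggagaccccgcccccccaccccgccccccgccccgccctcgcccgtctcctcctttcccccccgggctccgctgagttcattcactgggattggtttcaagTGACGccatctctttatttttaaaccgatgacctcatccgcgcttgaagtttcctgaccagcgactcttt
Dusp1 held the full CRE, from 143 to 136 bases before its start site, and another core from 191 to 187 bases before it. The full CRE was found in 1.79% of all 32851 windows, and Dusp1 was the 1 member with it. The core, which every full CRE contains on both strands, was found in 4 of the 6 member windows (Dusp1, Dusp2, Dusp5 and Dusp16) and in 20.8% of all windows. The Dusp2 match lay after its start site, and the Dusp16 match from 70 to 66 bases before the start site of its window. That Dusp16 site lies inside the gene's span (chr6:134715468-134807063, minus strand) and not at its outer end. The other windows adjoin the outer end of their gene. Dusp5 held a pair of adjacent serum response factor elements, from 82 to 63 bases before its start, an element found in 1.63% of all windows. The AP-1 site TGACTCA, whose complement is TGAGTCA, was found in 0 of the 6 windows and in 5.2% of all windows. An NF-kB site, an ISRE (GAAANNGAAA) and a GAS (TTCNNNGAA) were also found in 0 of the 6, and in 4.51%, 3.44% and 8.3% of all windows. The windows before the start were rich in G and C, from 56.4% in Dusp6 to 70.4% in Dusp2, beside a median of 52.4% over all windows. These matches describe letters within a short window and were not tested for binding.

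The arrays were alike in quality: 44.4% to 46.0% of the 59305 non-control spots were well above background by the scanner software's own call, and no spot was saturated. All 8 macrophage markers, among them Csf1r and Cd68, were well above background on all 3 arrays, with summed processed signals of 577381 to 736238 units. Of the markers of other cells, Cd3d, Cd8a, Ms4a1, Pax5, Mpo, Flt3, Pdgfra and Tek were not well above background on any array. Others of the same lists were so on all 3: the T cell markers Cd3e, Cd4 and Lck, the B cell marker Cd79a, the neutrophil markers Ly6g, Elane and S100a8, the fibroblast markers Col1a1 and Col1a2, and the endothelial marker Kdr. The summed signal of the 5 T cell markers ran from 2619 to 2993. The 4 neutrophil markers summed to 3707 under CpG, 9382 under IFN-γ + αIL-10R and 4720.1 under Triple, and the 3 dendritic cell markers to 44.5, 69.0 and 207, respectively. The largest term of the neutrophil sum was Elane under CpG and Ly6g on the other arrays. The part of other cells in any member's difference was not tested. Of the 5 IFN-γ response genes, all were more than 2-fold lower with CpG than with IFN-γ + αIL-10R, as in Irf1 (14.6-fold). The other response lists were less uniform in that comparison. Of the 5 Toll-like receptor response genes, 3 were higher with CpG and 1 was lower, Ptgs2 (3.66-fold). Of the 4 IL-10 response genes, 2 were higher and 0 lower.

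The family did not move as 1 block, and the placing of Triple was also mixed over all genes. Dusp1, Dusp2 and Dusp16 were highest with Triple, Dusp6 was lowest with Triple, and Dusp4 and Dusp10 lay between the other two arrays, in opposite orders. Among the 6 members well above background on all 3 arrays, Triple was therefore highest for 3, between for 2 and lowest for 1. Over the 16513 genes that passed this filter, Triple was highest for 32.1%, between for 27.7% and lowest for 40.2%. All 6 members spanned more than 2-fold from the lowest to the highest array, as did 20.3% of those genes.

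**Figure D1:**
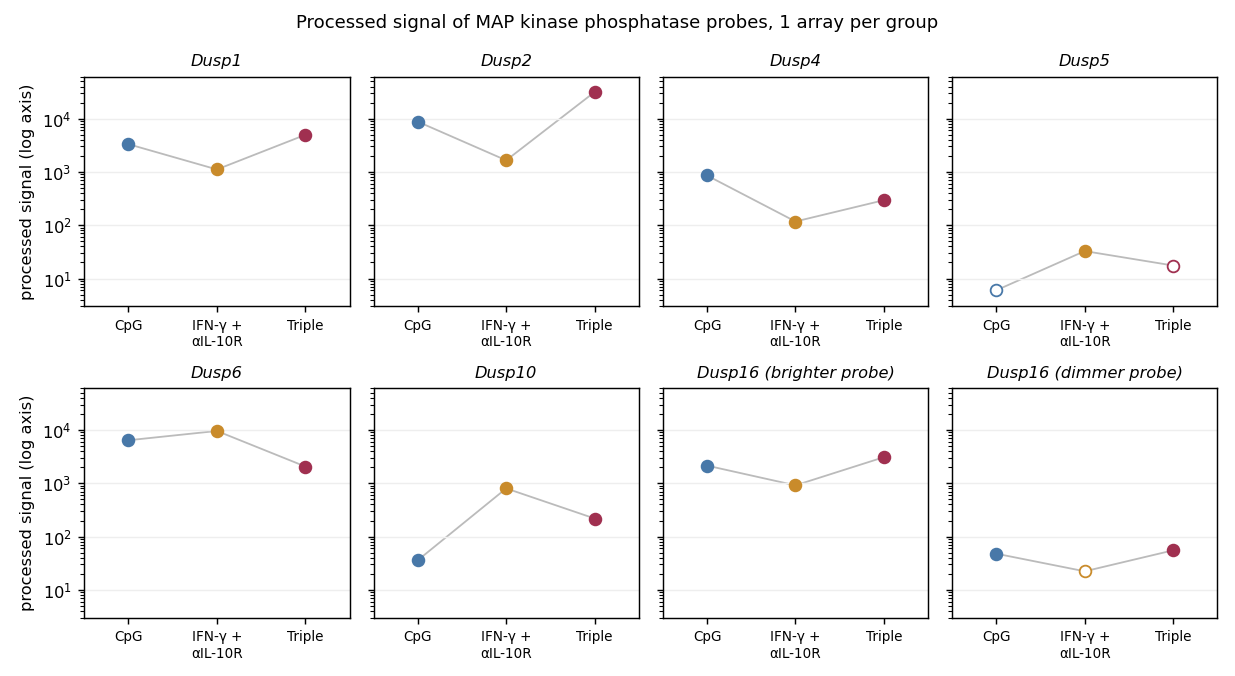
Processed signal (arbitrary scanner units, log axis) of each MAP kinase phosphatase probe on the CpG, IFN-γ + αIL-10R and Triple arrays, 1 spot each. Filled points are well above background and open points are not; Dusp1, Dusp2 and both Dusp16 probes are highest with Triple, while Dusp6 is lowest there. Heights are not comparable between probes.

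Among the inducible nuclear phosphatases, Dusp2 had the widest range over the 3 arrays, although Dusp4 differed more between CpG and IFN-γ + αIL-10R. Dusp2, also known as PAC1, is an immune-cell phosphatase first described in activated lymphocytes, and its gene lies at chr2:127336159-127338377 (GRCm38.p6). Its processed signal, the spot's brightness after the scanner software's correction, was 8771 units under CpG, 1649 under IFN-γ + αIL-10R and 31609.9 under Triple. After each array was scaled to its own 75th percentile, Triple was 3.75-fold above CpG and 19.7-fold above IFN-γ + αIL-10R. The latter difference ranked 59 from the top among 18767 genes. CpG alone was 5.24-fold above IFN-γ + αIL-10R. All 3 differences exceed spot-to-spot error: repeated spots of 1 probe on 1 array gave an expected SD of 0.16 for a log2 fold difference (0.42 where a signal was under 100), beside log2 differences of 1.91, 4.30 and 2.39. That error does not include the spread between cultures, which 1 array per group cannot show.

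Dusp1, or MKP-1, is the phosphatase best known for restraining p38 and JNK in macrophages exposed to Toll-like receptor ligands, and lies at chr17:26505591-26508472. It had the same order of arrays as Dusp2, at smaller size. Its signal was 3312 units under CpG, 1112 under IFN-γ + αIL-10R and 4966 under Triple. Triple was thus 4.58-fold above IFN-γ + αIL-10R but 1.56-fold above CpG, which is short of 2-fold. CpG was 2.94-fold above IFN-γ + αIL-10R.

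Dusp4, or MKP-2, another nuclear phosphatase, lies at chr8:34807610-34819894 and showed a different order. Its signal was 857 units under CpG, 117 under IFN-γ + αIL-10R and 295 under Triple. Both arrays with CpG were the higher ones, as for Dusp1 and Dusp2, but here Triple did not reach CpG. CpG was 7.20-fold above IFN-γ + αIL-10R, Triple 2.58-fold above it, and Triple was 2.79-fold below CpG. Normexp, another background correction, was run with 50 units added to every signal, which by itself shrinks differences that involve dim signals. Under it the log2 difference of Triple over IFN-γ + αIL-10R was 0.99, short of 2-fold. That of CpG over IFN-γ + αIL-10R was 2.25 in place of 2.85. The part of this offset in the changes was not tested.

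Dusp5, a nuclear ERK phosphatase at chr19:53529145-53541809, was at the edge of detection. Its signal was 32.7 units with IFN-γ + αIL-10R, well above background, and 6.01 with CpG and 17.5 with Triple, neither of which was. The array with IFN-γ + αIL-10R was at least 1.40-fold above CpG and at least 1.82-fold above Triple, where a dim array counts at its lowest well-measured signal or at the spot's own signal if that is higher. Under normexp the latter log2 difference was -0.10 in place of -0.86. CpG and Triple could not be compared for Dusp5, and 1 dim spot lies behind each value.

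The cytoplasmic phosphatase ran the opposite way to Dusp1 and Dusp2. Dusp6, or MKP-3, is a feedback inhibitor that acts on ERK, and lies at chr10:99263231-99267489. Its signal was 6409.7 units under CpG, 9576 under IFN-γ + αIL-10R and 2059.9 under Triple. Dusp6 was 2.99-fold lower with Triple than with CpG and 4.53-fold lower than with IFN-γ + αIL-10R, while CpG was 1.52-fold below IFN-γ + αIL-10R. Dusp7, which belongs to the same ERK-selective class but is no member here, had 2274 units under CpG, 2313 under IFN-γ + αIL-10R and 695 under Triple, which placed Triple 3.15-fold and 3.25-fold below them. Dusp9, the remaining gene of that class, was well above background with CpG alone.

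The phosphatases of JNK and p38 parted from each other. Dusp10, or MKP-5, at chr1:184034381-184075636, had 35.9 units under CpG, 800.4 under IFN-γ + αIL-10R and 218 under Triple. IFN-γ + αIL-10R was the high array, and Triple lay between: 6.32-fold above CpG and 3.58-fold below IFN-γ + αIL-10R. The 22.6-fold difference between CpG and IFN-γ + αIL-10R ranked 51 from the bottom of 18981 genes. It rests on a dim CpG spot, for which the scanner software gave an error of 6.76 units. On the IFN-γ + αIL-10R array the ring around the Dusp10 spot was marked as a background outlier, with a local background of 36 units where the array's median was 46. Under normexp, with the same offset of 50 units, the Dusp10 log2 difference between CpG and IFN-γ + αIL-10R was -3.03 in place of -4.50. In Triple over CpG it was 1.52 in place of 2.66. Of the 3 detected neutrophil markers, Ly6g had the same order of arrays as Dusp10, with 555 units under CpG, 7699 under IFN-γ + αIL-10R and 2658 under Triple. Elane, at 2839, 1615 and 1539 units, and S100a8, at 297, 55.7 and 517, had other orders, and the part of neutrophils in the Dusp10 difference was not tested.

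Dusp16, or MKP-7, a phosphatase that favours JNK, lies at chr6:134715468-134807063 and followed Dusp1. Its brighter probe had 2144 units under CpG, 914 under IFN-γ + αIL-10R and 3085 under Triple, and its dimmer probe 47.7, 22.3 and 55.2. The probes agree in order, although the dimmer one was not well above background with IFN-γ + αIL-10R, where the ring around the brighter spot carried a background outlier mark. By the brighter probe Triple was 3.46-fold above IFN-γ + αIL-10R and 1.5-fold above CpG, and CpG was 2.31-fold above IFN-γ + αIL-10R. By the dimmer probe those differences were at least 2.12-fold, 1.20-fold and at least 1.76-fold. The median log2 difference of neighbouring spots on the slide ran from -0.09 to 0.12 over all 8 probes and 3 comparisons. Such a median over many spots cannot show a fault of a single spot or its ring. The Dusp10 spot and the brighter Dusp16 spot, both marked on the IFN-γ + αIL-10R array, lay close together (rows 377 and 370, columns 46 and 45). Each had a local background of 36 units there, and the part of slide position was not tested.

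**Figure D2:**
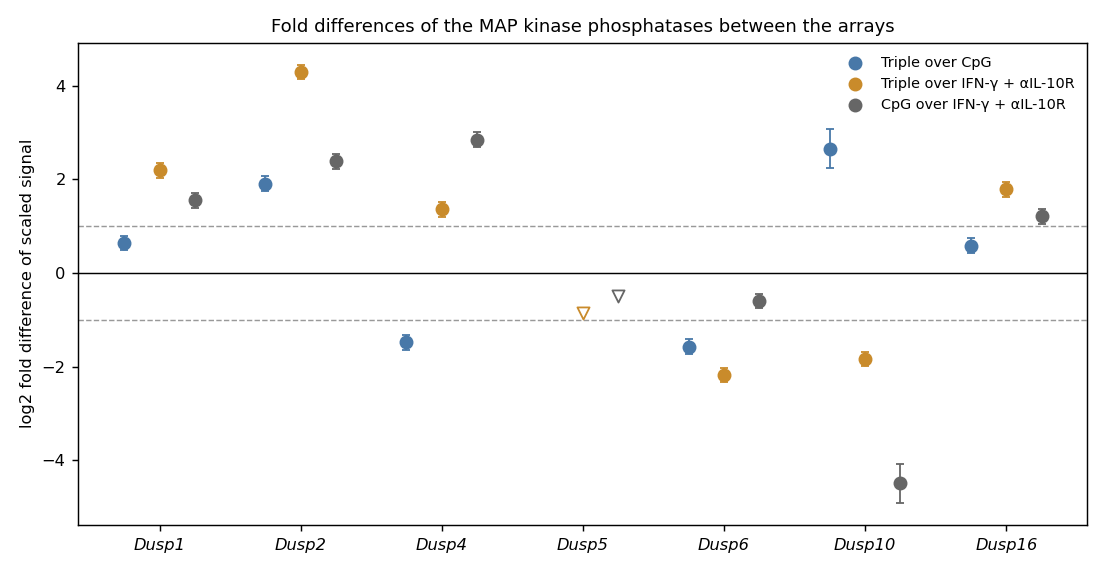
Log2 fold differences of the 7 genes (brighter probe for Dusp16) in Triple over CpG, Triple over IFN-γ + αIL-10R and CpG over IFN-γ + αIL-10R; bars are the SD from repeated spots within an array, and open triangles are bounds for Dusp5. Dashed lines mark 2-fold; Dusp2 has the highest point at 4.30 and Dusp10 the lowest at -4.50.

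Counts of members past 2-fold are set here beside the share of all genes past the same threshold. In Triple over CpG, 2 of 7 members were more than 2-fold higher (Dusp2 and Dusp10), where 7.54% of 19041 genes were, and 2 were lower (Dusp4 and Dusp6), where 10.2% of genes were. The median log2 difference of the 6 well-measured members was 0.61, and that of all well-measured genes -0.05. Between Triple and IFN-γ + αIL-10R, 4 were higher with Triple (Dusp1, Dusp2, Dusp4 and Dusp16), where 6.6% of 18767 genes were, and 2 were lower (Dusp6 and Dusp10), where 10.8% were. Under normexp 3 were higher, without Dusp4. Here the members' median was 1.58 and that of all genes -0.04. In CpG over IFN-γ + αIL-10R, 4 were higher (again Dusp1, Dusp2, Dusp4 and Dusp16), where 5.04% of 18981 genes were, and 1 was lower (Dusp10), where 5.84% were. The members' median was 1.38 and that of all genes 0.0019. These comparisons share arrays pairwise, so the counts are not independent of each other.

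**Figure D3:**
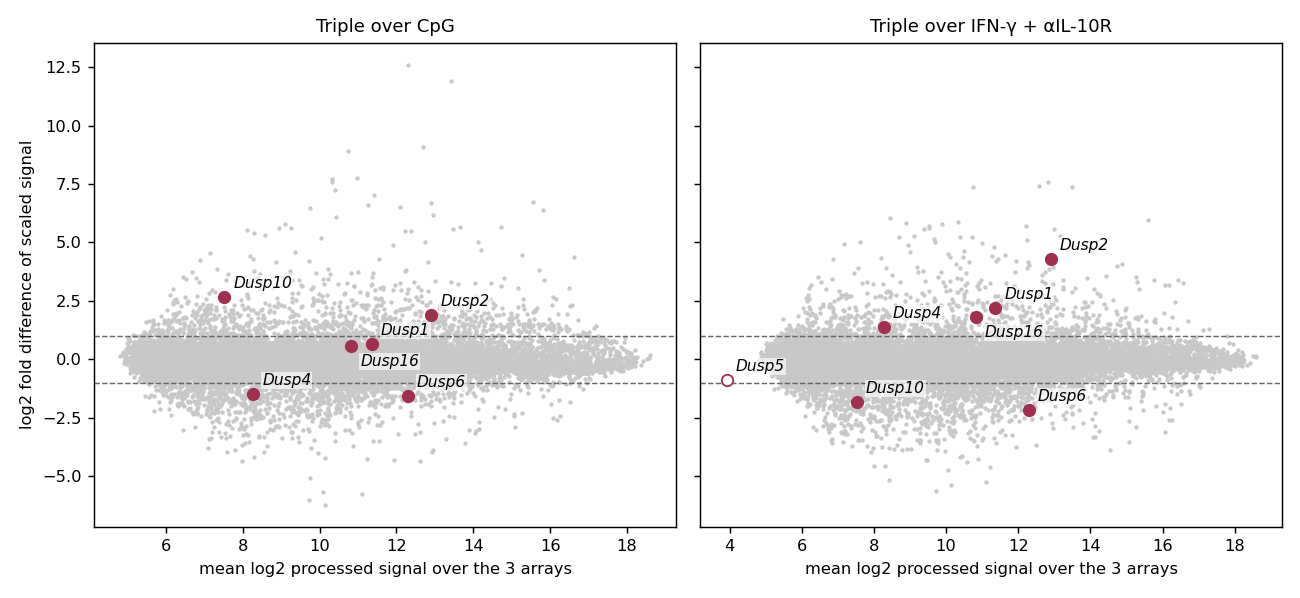
Log2 fold difference against mean log2 processed signal for genes that were well above background on each array (grey) and the family members (red; open, a bound), for Triple over CpG (left) and Triple over IFN-γ + αIL-10R (right). Dashed lines mark 2-fold; Dusp2 stands at 1.91 on the left and 4.30 on the right, and Dusp6 below the lower line in both.

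The kinases that these enzymes act on were mostly within 2-fold between arrays, as were most genes. In Triple over CpG, 7.54% of all genes compared were higher and 10.2% lower. Against IFN-γ + αIL-10R those shares were 6.6% and 10.8%. The same shares stand beside the counts of each list below. Mapk3, which encodes an ERK, had similar signals on all arrays: with Triple it lay 1.19-fold below its CpG level and 1.12-fold above its IFN-γ + αIL-10R level. Mapk14, which encodes p38α, was 1.74-fold lower with Triple than with CpG and 1.72-fold lower than with IFN-γ + αIL-10R. The JNK gene Mapk8 was dim (40.5 units with CpG and 51.8 with Triple), and it was not well above background with IFN-γ + αIL-10R. Mapk9, another JNK gene, was well above background on each array. It had 2203 units under CpG, 3552 under IFN-γ + αIL-10R and 2467 under Triple. Of 10 MAP kinases compared in Triple over CpG, 1 was more than 2-fold higher (Mapk13, 2.32-fold) and 1 lower (Mapk11, 2.59-fold), both p38 isoforms. Of 11 compared in Triple over IFN-γ + αIL-10R, 1 was higher (Mapk11, 2.24-fold) and 1 lower (Mapk4, an atypical kinase, at least 11.7-fold).

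Upstream and downstream kinases were likewise mostly within 2-fold, as were most genes by the shares above. Of 7 MAP2 kinases, 1 was lower with Triple: Map2k6, an activator of p38, was 4.04-fold below CpG and 11.9-fold below IFN-γ + αIL-10R. Both differences rest on a dim Triple signal of 30.9 units. Among MAP3 kinases, Map3k8 (TPL2, which links Toll-like receptors to ERK) had 2.62 times the IFN-γ + αIL-10R signal with Triple, and 1.21 times the CpG signal. In the former comparison 2 of 15 were lower, Map3k9 by 4.95-fold and Map3k1 by 2.14-fold. In Triple over CpG, 0 of 16 were higher and 1 was lower, Mos, at least 20.2-fold. Of 10 kinases activated by MAP kinases, 0 differed by more than 2-fold between Triple and CpG. Against IFN-γ + αIL-10R, Rps6ka2 was 2.12-fold higher, and Mknk1 (2.30-fold), Mknk2 (2.24-fold) and Rps6ka5 (2.30-fold) were lower. Mapkapk2, the p38-activated kinase that stabilises cytokine mRNA, was higher with Triple by 1.5-fold against CpG and by 1.65-fold against IFN-γ + αIL-10R.

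Of the other negative regulators of the ERK pathway, some were lower with Triple. Of 8 feedback inhibitors compared, 3 were lower than with CpG: Spred2 (4.01-fold), Rasa3 (2.53-fold) and Spry2 (at least 2.57-fold). The same genes were lower than with IFN-γ + αIL-10R, by 3.46-fold, 3.81-fold and at least 4.09-fold, and Rasa2 was 2.05-fold higher. The median log2 difference of the 7 well-measured regulators was -0.48 and -0.35, respectively. Of the other dual-specificity phosphatases, 12 of 19 could be compared in Triple over CpG, with 1 higher (Dusp28, 4.71-fold) and 3 lower (Dusp7, 3.15-fold, and Dusp9 and Dusp19, at least 2.91-fold and 2.40-fold). Of 11 compared with IFN-γ + αIL-10R, Dusp11 was 2.15-fold higher and Dusp7 3.25-fold lower. Dusp28 was high with both IFN-γ arrays, at 3936 units without CpG and 3567 with it, and 788 with CpG alone. Mapk4, Mos, Spry2, Dusp9 and Dusp19 rest on a bound and were named after their values were seen.

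Immediate early genes, the classic transcriptional targets of MAP kinases, moved in both directions at 20 h. No earlier time was measured, so their first response to the stimuli was not seen. In Triple over CpG, 5 of 16 were more than 2-fold higher (Egr1, Klf4, Atf3, Ier3 and Junb) and 3 lower (Egr2, Fos and Klf2). Against IFN-γ + αIL-10R, 7 were higher (Ier3, Egr1, Junb, Klf4, Atf3, Myc and Egr2) and 2 lower (Klf2 and Fos). Ier3 had the same order of arrays as Dusp1 and Dusp2, with 1099 units under CpG, 234 under IFN-γ + αIL-10R and 2628 under Triple. Fos, like Dusp7 and unlike Dusp2, was lowest with Triple: 4880 units under CpG, 5118 under IFN-γ + αIL-10R and 1674 under Triple. The log2 difference of CpG over IFN-γ + αIL-10R was -0.09 for Fos and -0.05 for Dusp7. Both lie within the spot-to-spot SD of 0.16, so the order of those arrays is not resolved. Egr1 had 42.1, 167 and 584 units, so that Triple was 14.4-fold above CpG and 3.58-fold above IFN-γ + αIL-10R. Egr2 ran with Dusp4, at 679.7, 105 and 221 units.

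The p38-linked group had the highest median log2 difference of the 8 lists, 1.28 in Triple over CpG and 1.88 against IFN-γ + αIL-10R. Of its 8 genes, 5 were more than 2-fold higher with Triple than with either other array: Ptgs2, Tnf, Il10, Cxcl1 and Cxcl2. Their mRNAs are controlled by p38 and by AU-rich element binding proteins. Cxcl1 and Cxcl2 were not well above background with IFN-γ + αIL-10R, so their folds against it are bounds, at least 5.76-fold and 13.2-fold. Cxcl1 was also dim with CpG, at 36.1 units. Ptgs2, which encodes the inducible cyclooxygenase, had 142 units under CpG, 513 under IFN-γ + αIL-10R and 29014 under Triple. The signals of Tnf were 15636, 7771 and 90432 in the same order. Of the decay factors that act on such mRNAs, Zfp36 was higher with Triple by 1.77-fold against CpG and by 1.68-fold against IFN-γ + αIL-10R. Zfp36l1 was 3.71-fold and 6.14-fold lower. Zfp36l2 was 2.76-fold lower than with IFN-γ + αIL-10R and 1.96-fold lower than with CpG.

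**Figure D4:**
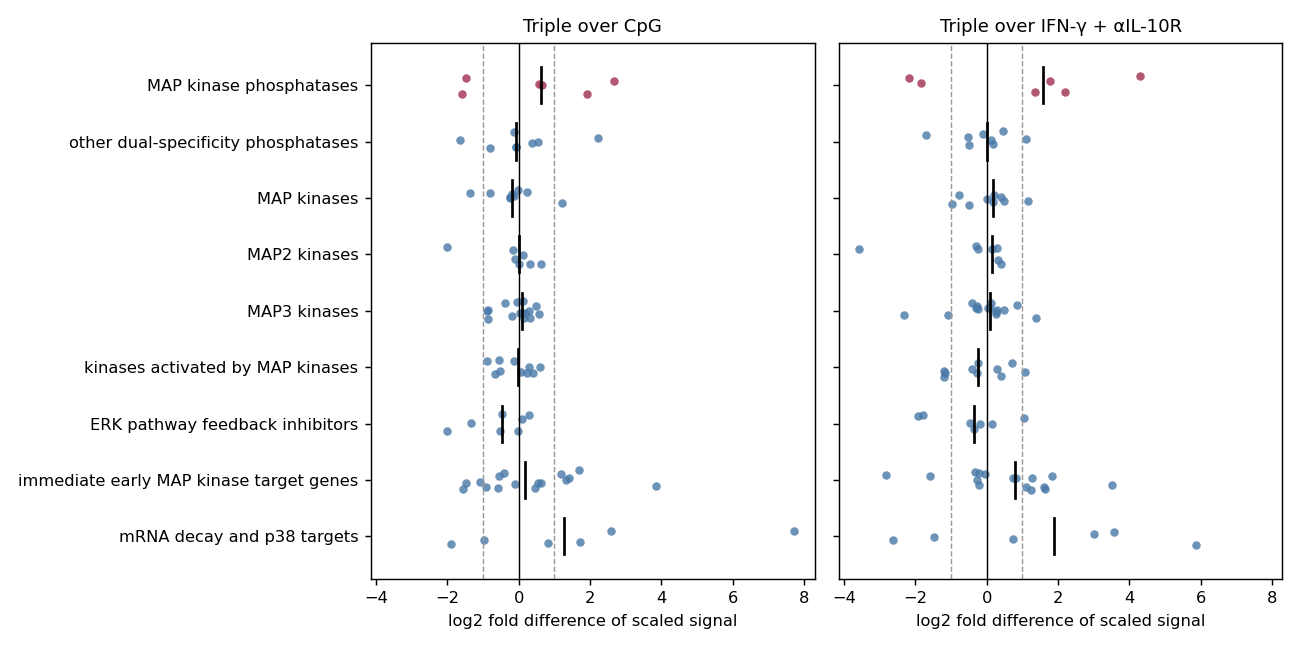
Log2 fold differences of single genes well above background on all 3 arrays, by pathway list, in Triple over CpG (left) and Triple over IFN-γ + αIL-10R (right); black bars are medians and dashed lines mark 2-fold. The family's median is 0.61 on the left and 1.58 on the right, and the medians of the other lists run from -0.48 to 1.28 on the left and from -0.35 to 1.88 on the right.

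Genes with profiles most like each member's were sought among 11940 other well-measured genes, by the distance between log2 values after each gene's mean was removed. Since each profile is 3 values, close matches arise among unrelated genes, and the distance describes the profile alone. For Dusp2 the nearest were Nhlh1, Mefv and Pdpn, at distances of 0.13, 0.22 and 0.30. Pdpn encodes podoplanin, a membrane glycoprotein of activated macrophages, and had 1820.1 units under CpG, 261 under IFN-γ + αIL-10R and 6384 under Triple. For Dusp1 they were Rapgef5, Smc1b and Cpd, and for Dusp16 Mecr, Plaur and Igf2bp2. Plaur, the urokinase receptor, had 4068, 1794 and 5907 units. For Dusp4 they were Cnksr3, Mmp27 and Egr2, for Dusp6 Gmnn, Khk and Ccdc69, and for Dusp10 9030619P08Rik, Rnase6 and C4b. Dusp10 had the most distant neighbours, at 0.38, 0.42 and 0.48.

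**Figure D5:**
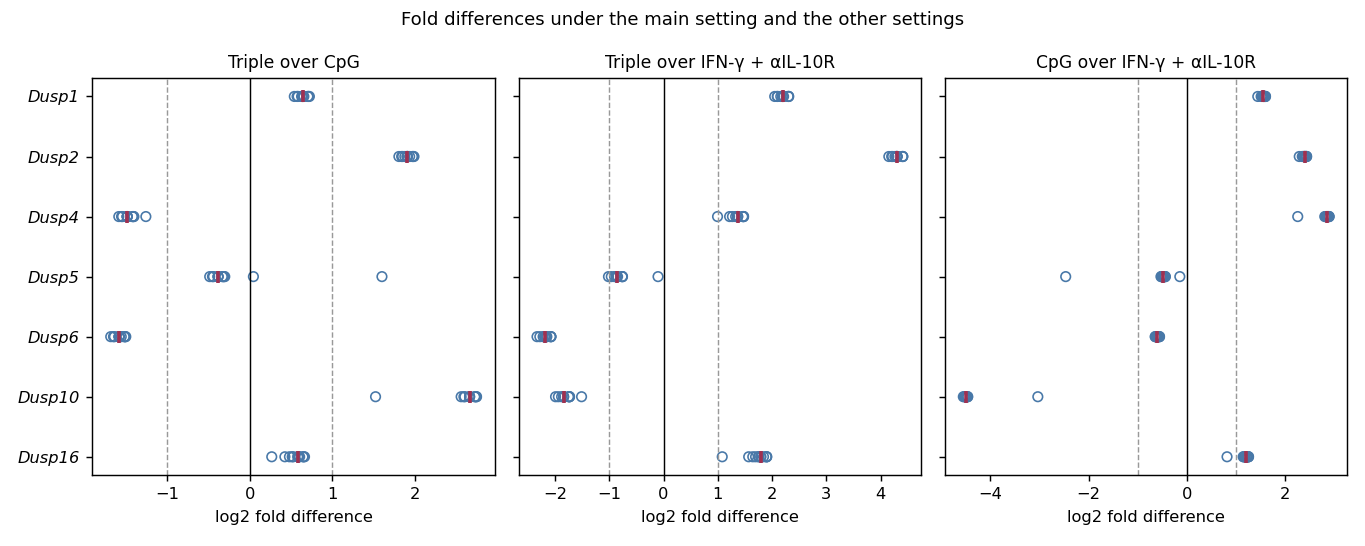
Log2 fold differences of each member under the main setting (red bar) and up to 12 other ways of processing the same arrays (open circles), in each comparison, with dashed lines at 2-fold. Values past 2-fold keep their sign throughout, and the isolated circles belong to Dusp4, Dusp5, Dusp10 and Dusp16.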

How the data were processed

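Total RNA of 3 BMDM samples was labelled with Cy3 and hybridised to Agilent arrays of 1 slide. The authors deposited 1 scanner file per array (Agilent Feature Extraction 10.10.1.1), whose intensity columns (processed, mean and local background signals) are linear and not normalized between arrays, and a series table of log2 values, each column of which equals log2 of the deposited processed signal minus 1 constant per array. How that constant was chosen is not given in the sources used here.

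Control spots and spots marked as feature outliers were left out (0.21% to 0.27% of spots). Marks on the background ring around a spot were not used, since the processed signal does not subtract it, a choice made after Dusp10 and the brighter Dusp16 probe were seen to be lost by them. The log2 processed signal was scaled to the 75th percentile of each array, taken over probes well above background on all 3. A gene was its brightest probe. Dim signals below the lowest well-measured signal of their array were set to it, higher ones kept their value, and the fold was then read as at least that size. A gene was called above 2-fold when the higher signal was well above background. Python 3.11.15, numpy 2.4.6, pandas 2.3.3, R 4.3.3 and limma 3.58.1 were used, and the calling code was tested on simulated data.

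The members and lists were chosen with earlier results of these data known. The genes named were all members, at most 4 genes per list past 2-fold with Triple and well above background on both arrays, a few fixed pathway genes, and the 3 nearest profiles of each member. Genes outside this rule that a list's count or a marker list holds (such as Atf3, Junb, Myc, Egr2 and Mapk4) were named after their values were seen. Signals count no reads, so precision is limited by the number of arrays, 1 per group. Alternatives were another background correction (normexp with an offset of 50 units), other scalings, the series table, the mean over probes, other filters and other thresholds. Gene positions and promoters are RefSeq's, on GRCm38.p6, and protein sequences were not used here.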

Additional observations from a re-analysis of the deposited data

How the results depend on the processing

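Of the 21 member differences, 15 were past 2-fold, and each of these kept its direction in every one of the up to 12 other settings tried; 13 also stayed past 2-fold in all of them. The exceptions were Dusp4 in Triple over IFN-γ + αIL-10R, with a log2 difference of 0.99 under normexp background correction, and Dusp16 in CpG over IFN-γ + αIL-10R, at 0.81 when spots with a background outlier mark were left out and the dimmer probe took over. In that setting, chosen after seeing the data, Dusp10 had no value. The counts fell to 1 higher in Triple over CpG and 1 lower for Triple against IFN-γ + αIL-10R. In CpG over IFN-γ + αIL-10R they fell to 3 higher and 0 lower. Without a filter or lower limit, 2 were lower in CpG over IFN-γ + αIL-10R, Dusp5 being added at a log2 difference of -2.47. In that setting Dusp5 came to 1.60 in Triple over CpG, where 3 were then higher. At 1.5-fold 2 were lower in CpG over IFN-γ + αIL-10R, 3 higher in Triple over CpG and 3 lower in Triple over IFN-γ + αIL-10R. At 3-fold, 0 were lower in Triple over CpG and 2 higher in CpG over IFN-γ + αIL-10R. Normexp, with its offset of 50 units, reduced the Dusp10 differences most, to 1.52, -1.51 and -3.03. Spike-in scaling moved the median of all genes by -0.15 in Triple over IFN-γ + αIL-10R. The other scalings moved it by 0.11 or less. No paired analysis was possible because each group had 1 array. The limit on dim members is signal over background: Dusp5 was well above it on 1 array.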
